A study of Mus musculus with 2 samples.

Results

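Cr2-positive B cells were single B cells with at least 1 UMI of Cr2, and they numbered 1209 of 20529 deposited barcodes. A UMI, or unique molecular identifier, marks 1 captured RNA molecule. Members were chosen by their own RNA: at least 500 UMIs and under 20% mitochondrial UMIs in the barcode, at least 2 UMIs over Cd79a and Cd79b, at least 1 of Cr2, none of Cd3d, Cd3e, Cd3g, Trac, Mki67 or Top2a, and at most 2 over Mzb1 and Derl3. The levels of these genes therefore describe the choice and are not results. The library from mice with IRF7-C435A tumours, the C435A library, held 521 members among 1866 B cells gated in the same way without the Cr2 rule, and that from mice with wild-type tumours, the WT library, held 688 among 2440.

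The cells came from a single-cell RNA sequencing study of C57 mice whose lungs carried metastases of B16F10, a mouse melanoma line. The tumour cells bore either wild-type IRF7 or the IRF7-C435A mutant. IRF7 is a transcription factor that drives type I interferon genes, and the genotype is that of the tumour, as far as the labels say, and not of the B cells. Lung tissue was digested with collagenase, red cells were lysed, and living white blood cells that carried CD45 and excluded 7-AAD, a dye of dead cells, were sorted. Each genotype was represented by 1 library, and the labels state neither the number of mice nor their age. There is thus no replicate of either condition, and the conditions are set side by side without a test. The submitters label the cell type as melanoma cell, whereas Ptprc, which encodes CD45, had a UMI in 86.9% of members in the C435A library and in 84.3% in the WT library.

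Cr2 encodes complement receptors CD21 and CD35, which in the mouse are splice forms of 1 gene. CD21 binds fragments of complement C3 on antigen and takes part in a co-receptor complex with CD81 that lowers the threshold for signalling through the B cell receptor. Mature B cells of the follicle carry it together with CD23, the low-affinity IgE receptor encoded by Fcer2a, while marginal zone B cells carry more CD21 and little CD23, and B-1 cells and plasma cells carry little CD21. The gene occupies chr1:195136811-195176716 of the minus strand in GRCm38, the build of the files, by the GENCODE vM21 annotation.

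Promoter sequences are shown for Cr2, which defines the members, and for Ccr6, a chemokine receptor that was higher in them. Each run is the 250 bases before the RefSeq start of transcription, in GRCm38.p6, read 5′ to 3′ on the strand of the gene. Capitals mark a match on either strand to 1 of 3 motifs searched, namely the octamer ATTTGCAT, the TATA box TATAAA and the E-box CAGGTG bound by E proteins.
Cr2 at chr1:195176720-195176969, minus strand: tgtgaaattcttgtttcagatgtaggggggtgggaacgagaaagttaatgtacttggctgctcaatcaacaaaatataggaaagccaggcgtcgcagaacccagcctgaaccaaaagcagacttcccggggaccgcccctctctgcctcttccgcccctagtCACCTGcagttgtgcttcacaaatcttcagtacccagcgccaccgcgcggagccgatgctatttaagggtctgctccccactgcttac
Ccr6 at chr17:8235793-8236042, plus strand: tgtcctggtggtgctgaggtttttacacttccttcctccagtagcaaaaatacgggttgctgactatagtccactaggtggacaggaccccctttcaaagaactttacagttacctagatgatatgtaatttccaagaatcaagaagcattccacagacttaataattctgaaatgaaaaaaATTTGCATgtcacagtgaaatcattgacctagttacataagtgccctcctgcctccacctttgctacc
The Cr2 window held the E-box on the opposite strand, a motif found in 17.1% of 27025 promoter windows of this length. The Ccr6 window held the octamer, which is the letter pattern bound by the OCT factors of B cells and occurred in 1.61% of the windows. Of the 5 genes proposed as markers of these cells, 4 had an entry. The TATA box occurred in the windows of Pxdc1 and Fcer2a and in 13.0% of all windows. These matches describe letters only.

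The members carried the RNA of B cells. Ms4a1, which encodes CD20, had a UMI in 87.5% of members in the C435A library and 86.8% in the WT library, against 1.42% and 1.30% of T cells gated in the same libraries. Ebf1, a transcription factor of B cell identity, had a UMI in 98.5% and 95.5% of members and in 1.65% and 1.57% of T cells. T cells were the deeper cells, with medians of 3963 and 2878 UMIs against 2411 and 2155 in members. Members summed to 1513975 and 1863438 UMIs. The libraries shared 24 barcodes in all, none of them a member in both. No doublet caller was run, and the rule itself set aside Cr2-bearing barcodes with 1 UMI of the T cell genes, of which there were 53 in the C435A library and 34 in the WT library, and those with more, of which there were 43 and 50. It also set aside 98 and 75 barcodes with a UMI of Mki67 or Top2a, genes of dividing cells. Near its lower limit, 11 members in each library had 2 or 3 UMIs over Cd79a and Cd79b, and 5 barcodes in each were left out with 1.

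Most members showed Cr2 through a single molecule. In the C435A library 346 members had 1 Cr2 UMI, 106 had 2 and 69 had 3 or more, with a highest value of 12. In the WT library the numbers were 468, 147 and 73, with a highest value of 10. The share of gated B cells that were members was 27.9% in the C435A library, with an exact Clopper-Pearson interval of 25.9% to 30.0%, and 28.2% in the WT library, with an interval of 26.4% to 30.0%. The difference was -0.276 percentage points, with an interval of -3.01 to 2.47 points. All intervals given here are 95% intervals for counting error only, and they do not cover differences between mice.

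The share followed the depth of the cell, as the plot of the share by depth shows. Among cells of 1000 to 1500 UMIs it was 13.1% and 14.9%, and among cells of 3000 to 5000 UMIs it was 41.7% and 39.4%, in the C435A and WT libraries. Above 5000 UMIs it was 33.1% and 28.1%. With each cell thinned to 1000 UMIs the share was 14.7% and 16.5%, and to 2000 UMIs 26.4% and 29.1%, after 22 and 27 or 894 and 1365 shallower cells were left out. The share of T cells with a Cr2 UMI was 0.568% and 0.541% before thinning and 0.157% and 0.218% at 1000 UMIs. These T cells were chosen to have no UMI of Cd79a or Cd79b. Barcodes that had taken up that B cell RNA were thus left out, so the share can understate the background. Since the share of gated B cells with Cr2 followed depth, one without a Cr2 UMI was Cr2-undetected, and not shown to lack the RNA. If each gated B cell had held Cr2 at the mean level of its library, 33.0% and 31.1% would have had a UMI, and 152 and 181 cells would have had 2 or more. Those observed with 2 or more numbered 175 and 220, a description of the counts that chose the members.

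**Figure D1:**
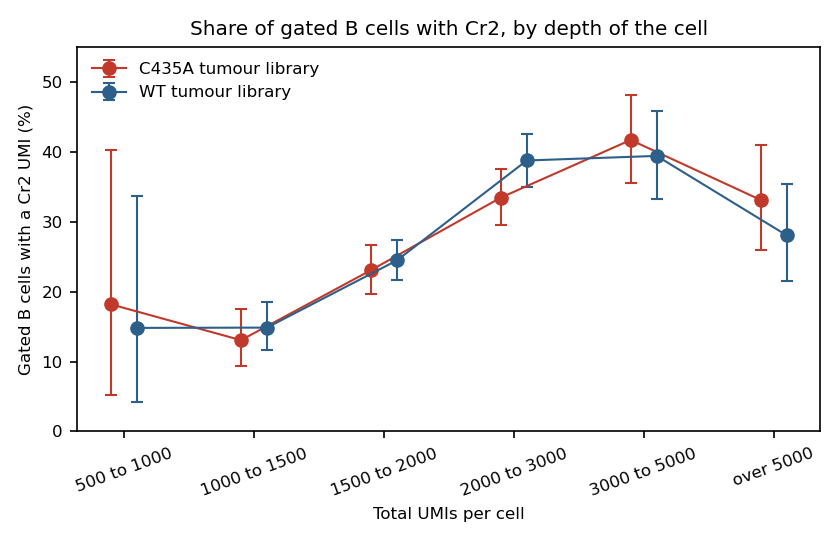
Share of gated B cells with a Cr2 UMI (percent, vertical axis) by total UMIs per cell (horizontal axis) in the C435A library (red) and the WT library (blue), with exact 95% intervals for counting error. Both libraries go from 13.1% and 14.9% at 1000 to 1500 UMIs to 41.7% and 39.4% at 3000 to 5000 UMIs.

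To describe what else members shared, their summed UMIs were compared with those of the same number of Cr2-undetected B cells matched cell by cell on depth within each library. Median depths of the matched cells were 2409 and 2152 UMIs. Over both libraries 300 of 10659 genes passed an adjusted p of 0.05 in edgeR's quasi-likelihood test with the library as a block, which is 2.81% of the genes tested. Among them 98 were higher in members (0.919%) and 202 were lower (1.9%), and these are the shares to set beside each list count of this comparison below. The design has 4 sums and 1 residual degree of freedom, so the test leans on the spread pooled over genes, and classes were compared within the same 2 libraries. Without the library block 31 genes passed, and with DESeq2 10 passed, of which 9 were among the 300, namely Pxdc1 as higher and Plac8, Apoe, S100a10, S100a6, Vim, Tagln2, Ahnak and Igkc as lower. The remaining 1 was Jchain, as lower. DESeq2 thus passed none of the class II, trafficking, B cell receptor, B cell cytokine, B-1 or NK cell genes that are given below from edgeR. It also passed none of the follicular, antigen activation, interferon or dendritic cell genes listed below. With only 1209 cells on each side, genes carried by a few cells need the check on single cells given below.

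The 4 genes proposed as markers with Cr2 were each higher in members in both libraries. They were proposed with these data in view, so their values are a description. Pxdc1, whose product is little characterised, stood at 183 CPM (counts scaled to the total UMIs of the class) in members and 99.5 CPM in matched cells of the C435A library, and at 188 and 101 CPM in the WT library, a log2 fold change of 0.90 with a standard error of 0.10. Ccr6, the receptor for the chemokine CCL20, stood at 114 and 59.0 CPM and at 86.9 and 57.6 CPM, a log2 fold change of 0.77. Cd83, a membrane protein of activated and germinal centre B cells that keeps MHC class II at the surface, stood at 265 and 180.5 CPM and at 223 and 175 CPM, a log2 fold change of 0.45. Fcer2a stood at 402 and 293 CPM and at 484 and 398 CPM, a log2 fold change of 0.37. At least 1 of these 4 genes had a UMI in 81.2% and 82.3% of members and in 69.3% and 71.5% of matched cells, so the genes marked a tendency and did not separate the classes. In T cells Pxdc1 had a UMI in 0.875% and 0.812% of cells and Fcer2a in 0.542% and 0.704%.

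Members were mostly cells with both IgM and IgD transcripts and with CD23. Ighm and Ighd were found together in 89.4% and 91.9% of members, with intervals of 86.5% to 91.9% and 89.6% to 93.8%, and in 80.8% and 82.6% of matched cells. Fcer2a had a UMI in 61.0% and 62.4% of members and in 46.1% and 54.9% of matched cells. The pattern of 3 or more UMIs of IgG or IgA constant genes without Ighd, a mark of class-switched cells, was seen in 2.11% and 0.872% of members and in 5.76% and 4.51% of matched cells. Cells with Cd1d1 or Cd9 but no Fcer2a, features found on marginal zone and B-1 cells, made up 7.10% and 8.14% of members and 15.2% and 12.8% of matched cells. Ighm RNA was nevertheless slightly lower in members, at 3409 against 3670 CPM and 3457 against 4261 CPM, with a log2 fold change of -0.20, a standard error of 0.06 and an adjusted p of 0.035. Ighd, at 1192 against 1023 CPM and 1294 against 1087 CPM, did not pass, with an adjusted p of 0.051. Ighm also had a UMI in 49.8% and 54.9% of T cells, and Ighd in 2.53% and 2.87%.

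MHC class II genes were higher in members. Of 12 genes of the class II and presentation list that were tested, 6 rose and none fell, with a median log2 fold change of 0.18 against -0.001 over all genes tested, and 11 were higher in both libraries. Cd74, the invariant chain that guards the peptide groove, stood at 14329 against 12596 CPM in the C435A library and 15343 against 13773 CPM in the WT library, a log2 fold change of 0.18 with a standard error of 0.05 and an adjusted p of 0.0078. H2-Oa, a chain of the DO complex that restrains peptide exchange in B cells, changed by 0.39 on the log2 scale, and Ciita, the master activator of class II transcription, by 0.38. H2-DMb2 changed by 0.27, H2-Ab1 by 0.22 and H2-Aa by 0.19. H2-Eb2, a class II gene outside the list, changed by 0.57. The changes are small, under 1.5-fold for each of the 6 listed genes, and they were present in each library alone.

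Receptors and signalling proteins of B cells moved in both directions. Cd72, an inhibitory co-receptor that binds CD100, stood at 365 against 232 CPM and 300.5 against 235 CPM, a log2 fold change of 0.51 with a standard error of 0.09 and an adjusted p of 2.00e-06. Cd22, another inhibitory co-receptor, rose by 0.32 on the log2 scale, and Blnk, an adaptor below the B cell receptor, by 0.31. Syk and Blk, kinases of the same pathway, had log2 fold changes of -0.36 and -0.30. In all 3 of 22 genes of the B cell receptor list rose and 2 fell, with a median of 0.04. Dtx1, a Notch pathway gene of marginal zone cells, stood at 49.5 against 35.2 CPM and 49.9 against 30.1 CPM, a log2 fold change of 0.62 with an adjusted p of 0.039, and was the 1 of 13 marginal zone genes that rose, while Plac8, Cd9 and Ephx1 fell. Cd81, which shares the CD21 complex, had a log2 fold change of -0.09 and did not pass. Over all members, none of 6 tested complement receptor and regulator genes other than Cr2 passed in edgeR's robust fit or DESeq2's test, with 1 at an unadjusted p under 0.05. Without robust estimation of the spread edgeR called Ifitm1 lower. When only Fcer2a-positive cells of both classes were compared, the complement regulator gene Cd55 was called lower. Of the 16 transcription factors of the B lineage, Klf2 fell and none rose.

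Lymphotoxin genes and a cytokine receptor were higher in members. Il9r, the receptor for interleukin 9, stood at 46.2 against 12.6 CPM and 33.8 against 17.8 CPM, a log2 fold change of 1.35 with a standard error of 0.24 and an adjusted p of 6.41e-06. Lta, which encodes lymphotoxin alpha, stood at 35.0 against 15.3 CPM and 34.4 against 17.2 CPM, with a log2 fold change of 1.09 and an adjusted p of 0.0013. Its partner Ltb rose by 0.30 on the log2 scale, and these were the 2 of 7 tested B cell cytokine genes that rose. Slamf1, a self-binding receptor of lymphocytes also called CD150, changed by 1.08, Icosl, the ligand of the T cell costimulator ICOS, by 0.71, and Rasgrp3, an activator of Ras below the B cell receptor, by 0.70. For Il9r, Lta and Slamf1 the most contributing member held 3.01%, 3.42% and 1.81% of the members' UMIs, so no single cell carried these values. Icosl and Rasgrp3 were chosen after their values were seen, as were Rasa2, Fam111a and Il4i1, which rose by 0.81, 0.59 and 0.50.

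Several trafficking genes were lower in members. Ccr7, which guides lymphocytes into T cell zones, stood at 131 against 208 CPM and 169 against 222 CPM, a log2 fold change of -0.51 with an adjusted p of 5.44e-06. Klf2, a transcription factor that keeps S1pr1 on, had a log2 fold change of -0.28, and S1pr1 itself -0.11 with an adjusted p of 0.79. Of 17 chemokine receptor and trafficking genes 7 fell and 1, Ccr6, rose, with a median of -0.28. Over all genes tested 1.9% fell and 0.919% rose. Among genes named after their values were seen, Vim, the filament protein vimentin, stood at 347 against 628 CPM and 413 against 697 CPM, a log2 fold change of -0.80 with an adjusted p of 4.05e-18. S100a10, Tagln2, Ahnak, Lgals1 and Anxa2 had log2 fold changes of -0.74, -0.81, -0.94, -0.70 and -0.71, and S100a6 of -1.39.

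B-1 cell genes were lower. Of 8 genes on that list 4 fell in edgeR's test, namely Zbtb32, Bhlhe41, Spn and Cd9, none rose, and the median was -0.97. DESeq2 called none of the 8. Zbtb32, a repressor that restrains B-1 and memory B cells, stood at 3.30 against 21.2 CPM and 1.61 against 19.9 CPM, a log2 fold change of -3.07 with a standard error of 0.45 and an adjusted p of 4.47e-09. Its RNA was found in 7 members in all. Bhlhe41, a factor needed for B-1a cells, stood at 15.9 against 41.1 CPM and 18.8 against 40.3 CPM, a log2 fold change of -1.22. Spn, which encodes CD43, had a log2 fold change of -1.09 and Cd9, a tetraspanin of B-1 and marginal zone cells, of -0.58. Cd5, another B-1a marker, had 11 UMIs in members and did not pass. Plac8, at 1073 against 1761 CPM and 849 against 1234 CPM, had a log2 fold change of -0.62 with an adjusted p of 7.82e-14.

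Light chain genes and 2 plasma cell genes were lower in members. No switched immunoglobulin gene was called by edgeR's robust fit or by DESeq2, but edgeR without robust estimation of the spread called Igha, Ighg2c and Ighg2b lower. Of 11 immunoglobulin constant genes tested 4 fell, namely Igkc, Ighm, Iglc1 and Iglc2, and none rose. Of 10 plasma cell genes outside the rule 2 fell, Xbp1 and Tnfrsf17, 9 were lower in both libraries, and the median was -0.48. Igkc, the kappa light chain, stood at 10225 against 21796 CPM and 10352 against 16769 CPM, a log2 fold change of -0.89 with an adjusted p of 1.93e-29, and 12.1% of its UMIs in matched cells came from 1 cell. Ighg2c stood at 92.3 against 2547 CPM in the WT library, where 93.4% of the matched cells' UMIs came from 1 cell, and it did not pass, with an adjusted p of 0.87. Jchain, which joins IgA and IgM, stood at 52.8 against 1332 CPM and 67.6 against 529 CPM and did not pass in edgeR's quasi-likelihood test, with an adjusted p of 0.62. It was called lower by DESeq2, with an adjusted p of 2.01e-04, and by edgeR without robust estimation of the spread. The leading cell held 22.1% of its UMIs in matched cells.

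RNA of other cell types was lower in members than in matched cells for several lists. Of 9 tested NK cell markers 5 fell, and their summed level was 554 against 1738 CPM in the C435A library and 343 against 531 CPM in the WT library. Of 21 monocyte, macrophage and neutrophil markers 7 fell and none rose, with summed levels of 2874 against 5080 CPM and 8266 against 8075 CPM. Of 7 tested dendritic cell markers 4 fell, with summed levels of 27.1 against 125 CPM and 60.1 against 135 CPM. Among the lists' defining markers 3 of 10 dendritic cell genes were at 0 in members of the C435A library and 1 in those of the WT library. Red cell genes summed to 22.5 against 2195 CPM and 36.0 against 65.1 CPM, and T cell markers outside the rule to 306 against 381 CPM and 243 against 362 CPM. None of the 4 red cell genes tested was called by edgeR's robust fit or DESeq2, while edgeR without robust estimation called all 4 lower. In the C435A library the matched cells held 2125 of the 2153 UMIs of the red cell gene Hbb-bs in all Cr2-undetected B cells. The part of this RNA in the other differences between the classes was not tested beyond the restrictions that follow.

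The planned restriction left out all doubtful cells, those with 2 or more UMIs of other cell types' markers and the deepest 5%. It kept 96 and 88 members and called 1 gene, which was not among the 300. Another 2 restrictions, added after the data were seen, left a smaller group of genes. Leaving out cells with 1% or more of their UMIs in markers of other cell types, and the deepest 5% of gated B cells, left 482 and 644 members. In this restricted set 148 genes were called, 112 of them among the 300. Comparing only Fcer2a-positive cells in both classes left 318 and 429 members, and 91 genes were called, 61 of them among the 300. Called in the same direction in all 3 comparisons were 41 genes, 12 higher and 29 lower. The higher ones included Il9r, Lta, Ltb, Pxdc1, H2-Eb2 and Cd74, and the lower ones Zbtb32, Vim, Ahnak, Plac8, Ccr7, Klf2 and Ighm. With Fcer2a-positive cells only, Ccr6 had a log2 fold change of 0.36 with an adjusted p of 0.46, Ciita one of 0.07 with an adjusted p of 0.94, and Bhlhe41 one of -1.09 with an adjusted p of 0.066. Of the class II list Cd74 alone then passed, and of the B-1 list Zbtb32 alone. No antigen activation or NF-kB gene of 26 tested, Cd83 included, was called with either of these 2 restrictions. In the restricted set Cd74, H2-Ab1, H2-Aa, H2-Oa and H2-Eb1 rose, of which H2-Eb1 had not been called over all members, Spn had an adjusted p of 0.093 and Cd9 one of 0.16, and 0 NK cell and 3 myeloid markers fell. Igkc, Xbp1, Cd72, Blnk, Cd22, Ciita and Dtx1 did not pass there, with adjusted p of 0.82, 0.95, 0.24, 0.69, 0.10, 0.10 and 0.29, although Igkc and Cd72 passed among Fcer2a-positive cells, with adjusted p of 0.013 and 0.017. S100a6 had a log2 fold change of -2.20 in the restricted set with an adjusted p of 0.75, and one of -0.79 among Fcer2a-positive cells with an adjusted p of 6.15e-08. Slamf1, Icosl and Rasgrp3 passed there but not among Fcer2a-positive cells, where their adjusted p were 0.37, 0.22 and 0.23.

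**Figure D2:**
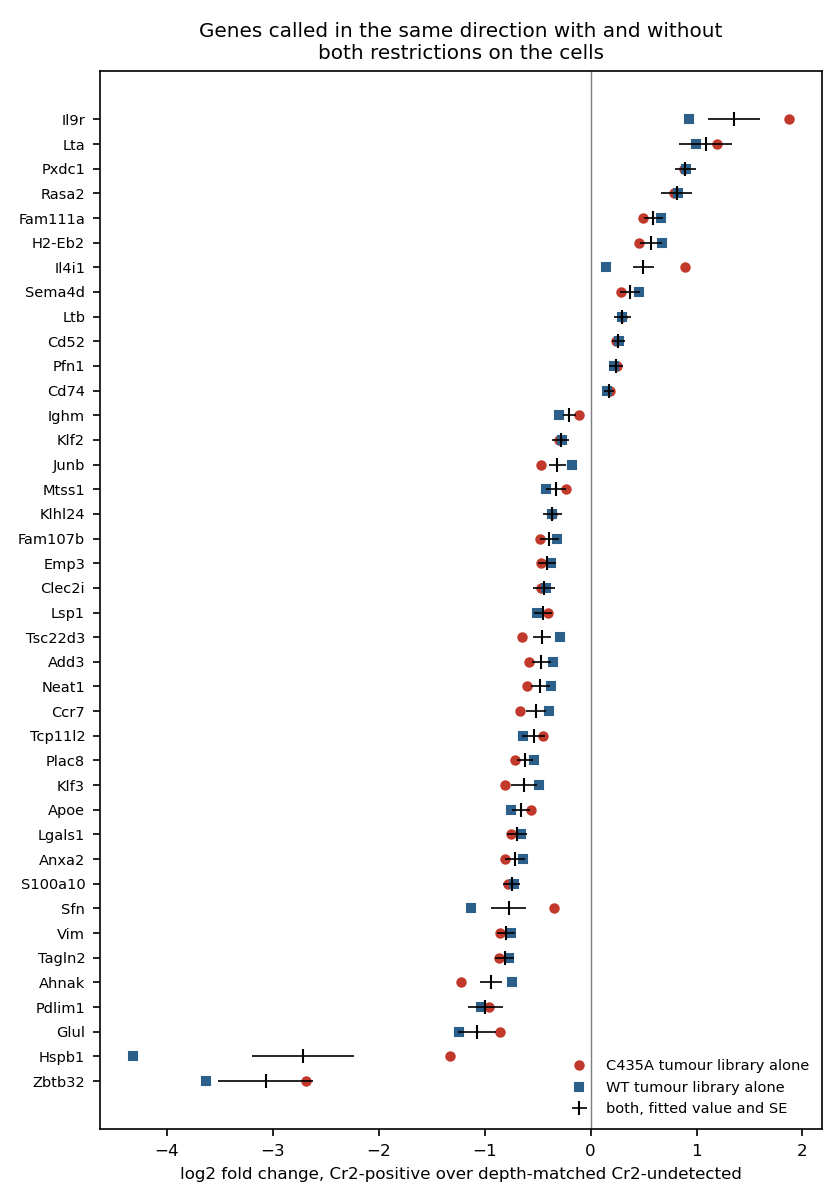
Log2 fold change of Cr2-positive over depth-matched Cr2-undetected B cells (horizontal axis) for 40 of the 41 genes called in the same direction with and without both restrictions on the cells (vertical axis). Circles and squares give each library alone, and black bars the fitted value with its standard error. For each gene shown both libraries lie on the same side of 0, 12 genes above it and 28 below.

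By the fixed rule for naming, the 12 highest and 12 lowest genes of this comparison held many whose RNA sat in 1 cell. Among the higher ones, 92.4% of the members' Alox15 UMIs, 76.9% of Arg1 and 61.1% of Saa3 came from 1 member each, and Alox15 and Arg1 are known from macrophages. The other 9, with log2 fold changes of 1.08 to 1.46, were Emid1, Rrp12, Il9r, Ttc28, Dancr, Rpp14, Cdca7, Lta and Slamf1. Only Il9r and Lta of these passed both in the restricted set and among Fcer2a-positive cells. Ttc28, Rpp14 and Slamf1 passed in the restricted set alone, and Emid1, Rrp12, Dancr and Cdca7 passed in neither. Among the lower ones, 1 matched cell held 84.0% of the UMIs of Ccl22, 91.7% of Lyz1, 62.0% of Fscn1, 61.3% of Dnase1l3 and 60.9% of Gdf15. The remaining 7 were Zbtb32, Klra8, Sspn, Hspb1, P2ry14, Ncr1 and Cox6a2, with log2 fold changes of -3.07 to -1.92. Only Zbtb32 and Hspb1 of these passed with both restrictions, and some of the others had no test in 1 of them. Klra8 and Ncr1 encode NK cell receptors. Sspn, a membrane protein of the dystrophin complex, and Hspb1, a small heat shock protein, were each spread over more cells, with 5.56% and 16.4% of the matched cells' UMIs in the leading cell.

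The level of several genes moved with the number of Cr2 UMIs in the cell, a description over strata of unlike depth, with medians from 2192 to 3480 UMIs in the C435A library and from 2013 to 2574 in the WT library among members. For cells with 0, 1, 2 and 3 or more Cr2 UMIs, Cd83 stood at 180.5, 212, 311 and 386 CPM in the C435A library and at 175, 189, 251 and 339 CPM in the WT library. Il9r stood at 12.6, 34.7, 57.8 and 71.5 CPM and at 17.8, 25.8, 39.0 and 63.1 CPM. Both genes were thus higher at each further step in both libraries, with wide intervals for Il9r, 43.7 to 110 CPM at the top in the C435A library. Pxdc1 was at 99.5, 159, 241 and 197 CPM and at 101, 163, 244 and 217 CPM, with its highest level at 2 UMIs.

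Other genes went the other way. Klf2 was at 490, 426, 465.5 and 225 CPM and at 622.5, 564, 515 and 280 CPM, lowest in the cells with 3 or more Cr2 UMIs in both libraries. Cd9 was at 352, 329, 48.2 and 53.7 CPM in the C435A library and went from 346.5 and 332.5 CPM at 0 and 1 UMI to 75.0 CPM at 3 or more in the WT library, and members with a single Cr2 UMI did not stand apart from matched cells in it. Zbtb32 was at 21.2, 4.33, 3.21 and 0 CPM and at 19.9, 1.67, 2.44 and 0 CPM. Bhlhe41 was at 41.1, 23.8, 0 and 7.15 CPM and at 40.3, 25.0, 7.32 and 7.89 CPM. Cd55, a complement regulator, was at 390, 374, 324 and 136 CPM and at 363, 362, 307 and 201 CPM.

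**Figure D3:**
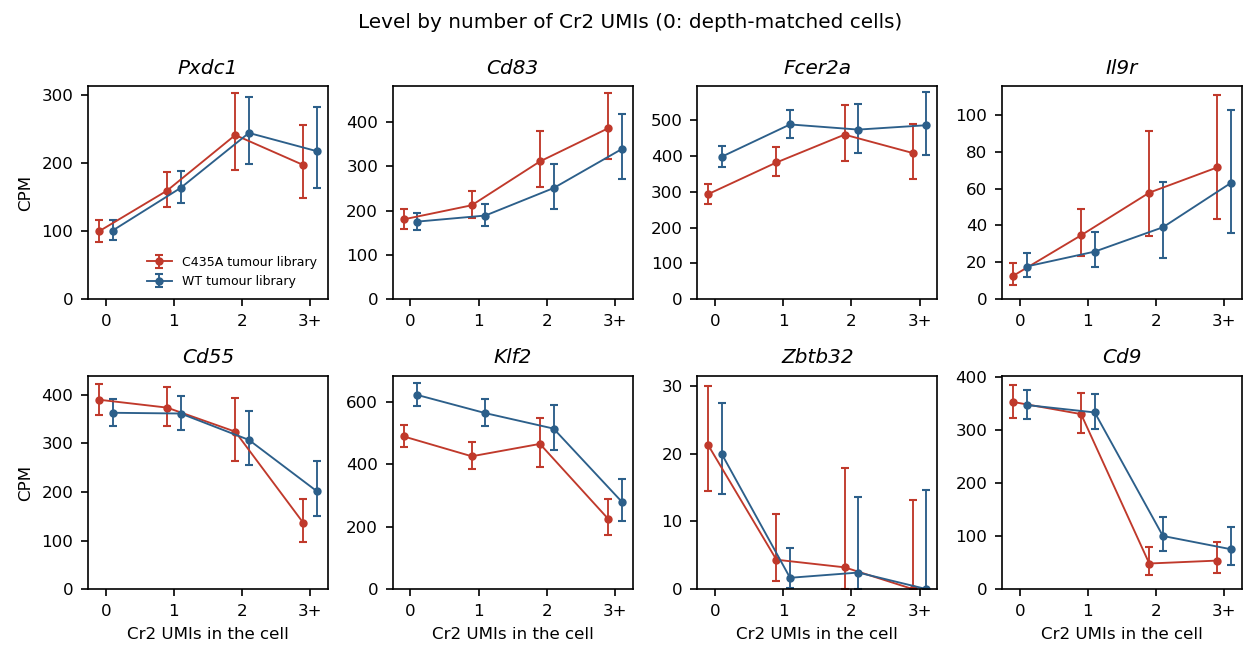
Level in CPM (vertical axes) of 8 genes by the number of Cr2 UMIs in the cell (horizontal axes; 0 stands for depth-matched cells), in the C435A library (red) and the WT library (blue), with exact 95% Poisson intervals. Cd83 goes from 180.5 to 386 CPM and from 175 to 339 CPM, and Cd55 from 390 to 136 CPM and from 363 to 201 CPM.

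Between the conditions, lists of B cell genes differed in how many members were past 1.5-fold. Ratios are log2 of C435A over WT, and since each rests on 1 library, the tumour genotype and the library cannot be told apart. Of 6782 genes with at least 50 UMIs in members, 168 were at least 1.5-fold higher in the C435A library (2.48%) and 400 at least 1.5-fold lower (5.9%), 568 in all (8.38%). In the matched cells 498 of the same genes were past 1.5-fold either way (7.34%). None of the 12 class II genes, the 16 transcription factors, the 22 B cell receptor genes or the 16 trafficking genes measured was past 1.5-fold, with medians of 0.04, 0.11, 0.02 and -0.09 against -0.03 over all genes. Of 22 antigen activation and NF-kB genes 5 were past 1.5-fold (22.7%), with Bcl2a1b, Bcl2a1d, Batf and Ccl4 higher and Nfkbiz lower, and in the restricted set described above the ratio of Nfkbiz was -0.26 with an interval of -0.85 to 0.31. Of 11 Toll-like receptor and partner genes 2 were past it (18.2%), both lower, namely Tlr2 with 20 and 55 UMIs and Irf7, and none was in the restricted set. Ighm stood at 3409 and 3457 CPM, a ratio of -0.02 with an interval of -0.07 to 0.03. Pxdc1 stood at 183 and 188 CPM, a ratio of -0.04 with an interval of -0.27 to 0.19, while Fcer2a was lower, at 402 and 484 CPM, with a ratio of -0.27 and an interval of -0.42 to -0.12. Ccr6 was higher, with a ratio of 0.39 and an interval of 0.07 to 0.70. In the restricted set its ratio was 0.10 with an interval of -0.24 to 0.45, which holds both 0 and 0.39, so that set does not decide the direction.

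Among type I interferon genes with at least 50 UMIs in members, none was 1.5-fold higher in the C435A library, and some were lower. The list held 44 genes, and those with fewer UMIs were not counted. They went both ways, such as Ifi44 with 9 and 2 UMIs and Rsad2 with 5 and 19. Of 27 type I interferon response genes measured 3 were 1.5-fold lower, Bst2, Irf7 and Rtp4, which is 11.1% beside 5.9% over all genes measured, with a median of -0.09, beside -0.21 in matched cells. Bst2, which encodes tetherin, stood at 74.0 and 115 CPM, a ratio of -0.63 with an interval of -0.98 to -0.30. Irf7 itself had 22 and 44 UMIs in members, 14.5 and 23.6 CPM, and a ratio of -0.70 with an interval of -1.51 to 0.07. Of 19 interferon gamma response genes 1 was past 1.5-fold and was lower, Gbp2 with 16 and 41 UMIs, and the median was 0.13, beside -0.10 in matched cells. In the restricted set the ratio was -0.30 for Bst2 with an interval of -0.71 to 0.11, -0.18 for Irf7 and -0.48 for Gbp2, and Rtp4 alone of the type I genes was past 1.5-fold.

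Heat shock genes were lower in the C435A library. Of 19 immediate early and heat shock genes measured, 4 were 1.5-fold lower (21.1%, beside 5.9% over all genes measured) and none higher. The fourth was the phosphatase gene Dusp1, and the median was -0.32, beside -0.21 in matched cells. Hspa1b, an inducible chaperone, stood at 203 and 343 CPM, a ratio of -0.75 with an interval of -0.95 to -0.55. Hspa1a stood at 256 and 389 CPM, a ratio of -0.61, and Hspa8 at 512 and 768 CPM, a ratio of -0.59. In the matched cells the ratios of Hspa1b, Hspa1a and Hspa8 were -0.39, -0.49 and -0.49. The leading cell held 1.69%, 2.07% and 1.27% of the members' UMIs of these 3 genes, and in the restricted set their ratios were -0.78, -0.63 and -0.60.

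By the rule for naming, the 10 leading genes in the C435A library included 3 of MHC class I. H2-Q7, a class Ib gene, stood at 707 and 420 CPM in members, a ratio of 0.75 with an interval of 0.62 to 0.89, and at a ratio of 0.69 in matched cells. H2-Q6 and H2-M3 had ratios of 0.58 and 0.66, but genes of this family are near copies of each other, so reads can be split between them in ways that the counting sets. Zfas1, a noncoding RNA, stood at 276 and 153 CPM, a ratio of 0.85, with 0.72 in matched cells. Pold4, a subunit of DNA polymerase delta, stood at 666 and 415 CPM, a ratio of 0.68 with an interval of 0.55 to 0.82, and 0.28 in matched cells with an interval of 0.13 to 0.43. Sp140, Lat2 and Bcl2a1b had ratios of 0.82, 0.71 and 0.69, and 0.38, 0.31 and 0.39 in matched cells. Bcl2a1b also has near copies. Ccl5, a chemokine of NK and T cells, had a ratio of 0.97 in members and 1.95 in matched cells, and Arg1 one of 2.23 with 76.9% of its UMIs in 1 member. In the restricted set the ratio was 2.39 for Ccl5 and -0.46 for Arg1, which then had 3 and 5 UMIs.

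The 10 genes at the other end were mainly those of neutrophils, and they came from few cells. S100a8 stood at 23.1 and 1330 CPM, S100a9 at 37.6 and 1802 CPM, and Retnlg at 1.32 and 195 CPM, with ratios of -5.85, -5.58 and -7.20. Ltf, which encodes lactoferrin, had 0 UMIs in the C435A library and 148 in the WT library, at least 40.1-fold lower against a floor of 3 UMIs per library. Camp, Lcn2, Ngp and Mmp8 had ratios of -6.28, -5.81, -5.30 and -4.47. Over these 8 genes, members summed to 110 UMIs in the C435A library and 7289 in the WT library, where 3 cells held 86.8% of them and the leading cell held 40.2%, with 4 Cr2 UMIs and 14149 UMIs in all. In the restricted set, whose filter itself uses S100a8 and S100a9, their ratios were -1.65 and -1.34.

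Macrophage and tumour RNA was also lower in members of the C435A library. Spp1, which encodes osteopontin, had 50 and 327 UMIs spread over 165 members, with 37.7% in 1 cell, a ratio of -2.41 and an interval of -2.87 to -1.98, and Thbs1 had a ratio of -4.73 with 67.3% in 1 cell. In matched cells the ratio of Spp1 was -2.60. All 4 melanoma markers measured were past 1.5-fold lower, with a median of -1.23 in members and -1.44 in matched cells. Dct, an enzyme of pigment synthesis, had 16 and 78 UMIs, and T cells held it at 119 and 170 CPM, above the 10.6 and 41.9 CPM of members. Monocyte, macrophage and neutrophil markers were past 1.5-fold lower for 15 of 19 genes (78.9%, beside 5.9% over all genes measured). In the restricted set, whose filter uses these markers, 12 of 19 were past 1.5-fold lower and 3 were past it higher. Their part in the other library ratios was not tested.

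**Figure D4:**
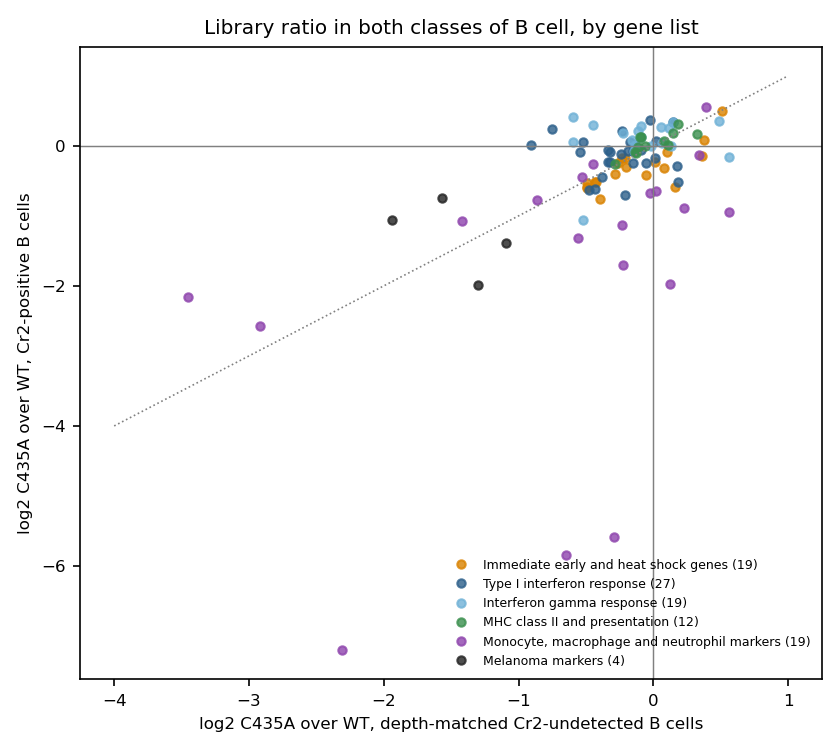
Log2 ratio of C435A over WT in Cr2-positive B cells (vertical axis) against the same ratio in depth-matched Cr2-undetected B cells (horizontal axis) for genes of 6 lists, 1 point per gene, with a dotted line of equal ratios. Neutrophil genes such as Retnlg (-7.20) and S100a8 (-5.85) lie far below the line, and the 12 class II genes lie near 0.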

How the data were processed

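The files hold counts of UMIs per gene and barcode, deposited by the authors as Cell Ranger matrices, 1 per library, and no normalized values were used. The aligner was Cell Ranger, with GRCm38 as the genome, per the submitters' processing notes, in version 7.2.0 per the file headers. Both BD Rhapsody and the 10x Chromium kit appear in the labels' protocols, so the platform is uncertain. The annotation release, the intron setting and the cell calling were not given in the sources used here.

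Barcodes under the stated limits were left out, which kept 10313 and 10051 of 10373 and 10156 barcodes in the C435A and WT libraries, with totals of 59615672 and 54934397 UMIs. Gated B cells without Cr2 were matched to members by total UMIs without Cr2, each used once. UMIs were summed per class and library. Classes were compared in edgeR 4.0.16 (TMM scaling, robust quasi-likelihood fit, library as block, genes with at least 20 UMIs over the 4 sums) with Benjamini-Hochberg adjustment, and DESeq2 1.42.0 was an alternative. Robust estimation was chosen after a fit without it was seen. Libraries were compared as ratios of CPM with exact conditional intervals, a count of 0 being set to 3, for genes with at least 50 UMIs. T cells had 2 or more UMIs over the 4 T cell genes of the rule and none of Cd79a and Cd79b. The edgeR fit and the intervals of the library ratios were tested on simulated data, and DESeq2 was not. The edgeR fit recovered 85% of 2-fold and 44% of 1.5-fold changes and called 4 unchanged genes. That simulation set a single spread for all genes, so genes carried by 1 cell were not covered. Its changed genes were drawn from those with at least 50 UMIs per class, on average, over both libraries. The recovered shares thus do not cover genes with fewer UMIs, which were tested from 20 UMIs over the 4 sums.

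The library pairs the classes, since both classes come from the same sorted cells of each library. Named genes were the 12 highest and 12 lowest by log2 fold change among those past the threshold, in the same direction in each library, with at least 50 UMIs and without immunoglobulin segments, and the 10 highest and 10 lowest library ratios by the interval bound nearest 0 with at least 50 UMIs and 50 CPM in 1 library, beside members of the gene lists. The members, gene lists and naming rules were chosen with earlier results of these data known. Alternatives changed the reference cells, the Cr2 minimum, the scaling, the filters, the block and the tool. Some genes of the lists are counted but not reported here by name.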

Additional observations from a re-analysis of the deposited data

Results flagged for a closer look

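Among listed or named genes, 5 had library ratios in members and in depth-matched Cr2-undetected B cells that pointed in opposite directions, each with an interval away from 0. The difference between the classes was not tested, since each ratio rests on 1 library per condition. Ltf had a log2 ratio of -5.32 in members, against the floor of 3 UMIs, and 1.28 in matched cells. Igha had -0.84 in members and 2.42 in matched cells, where 1 cell held 26.4% of its UMIs. Ccl4, a chemokine of activated lymphocytes and macrophages, had 1.23 and -0.77, with 38 and 20 UMIs in members. The immediate early genes Egr1 and Nr4a1, induced by B cell receptor signals, differed in opposite ways from each other, with 0.45 and -0.48 for Egr1 and with -0.50 and 0.45 for Nr4a1. Without cells rich in other markers and the deepest 5%, the ratio in members was 0.14 for Egr1, with an interval of -0.34 to 0.62. For Nr4a1 it was within 0.001 of 0, with an interval of -0.56 to 0.55. Each interval held both 0 and the gene's ratio over all members, so this set does not decide either direction.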

How the results depend on the processing

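The difference in share kept an interval that held 0 under each of 7 alternatives, from -2.68 to 0.93 percentage points. The count of 300 genes between the classes was 83 with Fcer2a-positive reference cells, 91 with Fcer2a-positive cells in both classes, 185 with at least 2 Cr2 UMIs, 148 without cells rich in other markers and the deepest 5%, 31 without the library block, 10 with DESeq2, and 1 with all doubtful cells left out, which kept 96 and 88 members. That 1 gene was not among the 300. With no filter on low counts the count was 257, with DESeq2's size factors 296, without robust estimation 307 and with all undetected cells 322. The count of 568 genes past 1.5-fold between the libraries was 1377 with a minimum of 20 UMIs, 6717 with none, 285 after thinning, 348 with at least 2 Cr2 UMIs and 130 without doubtful cells. Since the number of genes measured moved too, the shares were 15.0%, 39.6%, 8.29%, 9.86% and 12.2%, beside 8.38%. Gdf15 turned to 0.86 with Fcer2a-positive cells in both classes, with an adjusted p of 0.85. Over the named genes of the class comparison, 122 values had the same direction and call, 73 lost the call and 1 turned, and the 46 values from 1 library alone, which carry no test, had the same direction. The comparison without cells rich in other markers and the deepest 5%, that of Fcer2a-positive cells in both classes and the fit without robust estimation were added after the data were seen. Depth limits the members: 346 and 468 of them rest on a single Cr2 UMI, and a wrongly assigned molecule would make a member.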

Other observations

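Toll-like receptor genes, which sense microbial and self nucleic acids and lipids, showed no call between the classes: of 15 tested, none passed in edgeR's quasi-likelihood test with Benjamini-Hochberg adjustment, nor in DESeq2, 2 had an unadjusted p under 0.05, and the median log2 fold change was -0.26. Tlr7 stood at 23.1 against 25.2 CPM in the C435A library and at 26.3 against 11.8 CPM in the WT library, with an adjusted p of 0.48. Germinal centre genes likewise had no call among 8 tested by either tool and 0 at an unadjusted p under 0.05. S phase genes outside the rule had a median of 0.15 with no call by either tool among 17 and 4 at an unadjusted p under 0.05, although the rule had set aside 98 and 75 Cr2-bearing barcodes with Mki67 or Top2a. Of 42 type I interferon genes 2 rose in members, among them Ifi213 by 0.65 on the log2 scale, and Bst2 fell by 0.62. Of 11 follicular B cell genes Fcer2a and Cd22 rose and Klf2 and Ccr7 were among the 3 that fell, with a median of -0.03. Of 28 antigen activation and NF-kB genes Cd83 and Bcl2a1b rose and Gadd45b, Ccl22, Ccl3 and Ccl4 fell, with a median of -0.04. DESeq2 called none of these 28, and neither of the 2 restrictions added after the data were seen left a call on that list. Between the libraries, 4 of 22 antigen activation genes measured in members were 1.5-fold higher in the C435A library and 1 was lower, with a median log2 ratio of 0.13, beside 1 higher and 2 lower in matched cells.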
